A study of Mus musculus with 8 samples.

Results

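Genomic imprinting leaves some genes expressed mainly from the allele of a single parent. A list of 32 mouse imprinted genes was followed here by symbol through a table of 34536 genes. Of the 32, 26 had a row and 25 had enough counts to be tested among 13817 genes. H19, Meg3, Rian, Mirg, Kcnq1ot1 and Airn, all noncoding RNAs, had no row and were not analysed here. The 26 genes with a row code for proteins, and the table held rows for 26 genes annotated as lincRNA (long intergenic noncoding RNA) against 21551 protein-coding symbols. By the allele that textbook knowledge assigns, 7 of the 26 are maternally expressed, 17 are paternally expressed, and for Gnas and Ddc the allele depends on the transcript or the tissue.

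The 8 libraries came from mouse cells that had been sorted by fluorescence from embryoid bodies, which are clumps of differentiating pluripotent stem cells. Libraries A, C, E and G are labelled endocardial, the cell layer that lines the heart, and B, D, F and H endothelial. The sources used here do not give the stem cell line, genotype, culture day, treatment or sort markers of either group. Nothing says that the libraries came from separate cultures, so a p-value here reflects the spread among these samples alone, and that spread may be technical.

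Most imprinted genes lie in clusters. In most clusters, though not for every imprinted gene, DNA methylation laid down in the egg or the sperm marks a control region and so sets which allele is read. Many act on growth of the embryo and placenta: Igf2 and Dlk1 are read from the paternal allele, and Grb10, Cdkn1c and Phlda2, which restrain growth, from the maternal allele. Zfp57, a zinc finger protein, binds the methylated hexamer TGCCGC and keeps the marks through early development. Read counts per gene add the alleles together, so parental origin was not measured, and the 2 classes are names for groups of genes.

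The promoters of 4 paternally expressed genes are shown because these genes were among the 5 with the largest differences between the groups. Each runs from 250 bases before to 50 bases after the RefSeq start, 5′ to 3′ on the gene's strand, with every CG, the pair of letters that is methylated in mammals, in capitals.
Plagl1: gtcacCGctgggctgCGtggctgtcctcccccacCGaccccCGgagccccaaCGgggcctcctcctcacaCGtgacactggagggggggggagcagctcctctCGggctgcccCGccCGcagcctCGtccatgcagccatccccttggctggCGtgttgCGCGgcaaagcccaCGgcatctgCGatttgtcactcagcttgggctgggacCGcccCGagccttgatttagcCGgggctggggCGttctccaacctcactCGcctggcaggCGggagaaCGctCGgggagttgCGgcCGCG
Nap1l5: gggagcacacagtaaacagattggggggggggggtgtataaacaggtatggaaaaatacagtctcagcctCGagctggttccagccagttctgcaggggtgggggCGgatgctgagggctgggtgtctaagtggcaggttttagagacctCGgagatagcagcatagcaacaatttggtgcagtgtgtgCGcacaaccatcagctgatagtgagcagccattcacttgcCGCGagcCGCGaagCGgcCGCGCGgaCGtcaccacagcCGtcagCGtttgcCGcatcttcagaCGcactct
Magel2: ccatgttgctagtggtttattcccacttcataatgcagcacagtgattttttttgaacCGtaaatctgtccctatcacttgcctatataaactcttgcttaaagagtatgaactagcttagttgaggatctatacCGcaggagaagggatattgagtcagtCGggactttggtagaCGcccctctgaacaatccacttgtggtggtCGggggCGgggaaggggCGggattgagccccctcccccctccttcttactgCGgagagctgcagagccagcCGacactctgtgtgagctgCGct
Dlk1: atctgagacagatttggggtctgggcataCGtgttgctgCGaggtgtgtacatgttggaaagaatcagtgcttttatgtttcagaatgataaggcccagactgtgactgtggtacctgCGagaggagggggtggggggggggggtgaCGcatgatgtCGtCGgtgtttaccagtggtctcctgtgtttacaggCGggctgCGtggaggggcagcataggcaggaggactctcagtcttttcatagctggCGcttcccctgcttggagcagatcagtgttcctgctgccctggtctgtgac

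The windows are chr10:13090582-13090881 (plus strand) for Plagl1, chr6:58907077-58907376 (minus strand) for Nap1l5, chr7:62376729-62377028 (plus strand) for Magel2 and chr12:109452573-109452872 (plus strand) for Dlk1, from RefSeq on GRCm38.p6. They hold 26 CG pairs in Plagl1, 17 in Nap1l5, 10 in Magel2 and 9 in Dlk1, where the median of all 32851 windows in the table was 7. The hexamer TGCCGC was searched on both strands, as TGCCGC or its reverse complement GCGGCA in the letters of a window. It stood once in the Plagl1 window and 2 times in the Nap1l5 window, and it was not among the letters of the Magel2 and Dlk1 windows. Of the 26 genes, 21 had at least 1 window, and 7 of these 21 (Plagl1, Nap1l5, Nnat, Mest, Grb10, Zim1 and Snrpn) had the hexamer, 33.3% against 13.1% of all genes with a window. Their richest windows had a median of 15 CG pairs against 8 over all genes. A gene with more windows has more chances in such counts per gene. By window, 23.5% of the 34 windows of these genes held the hexamer, against 11.6% of all windows. The median by window was 11.5 CG pairs against 7. The hexamer itself holds a CG, so the hexamer and CG counts are not separate. The 27025 genes with a window include genes too low to be tested here, and no comparison was made with tested genes alone. A match of letters is a description and not a bound site.

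The total estimated count per library ran from 6677667 to 11369363, and 3 counts, the limit for a gene with none, were worth 0.267 to 0.438 CPM (the count scaled to library size), for counting error only. Marker levels differed between the groups in some lists only. The summed level of 20 pan-endothelial genes was 1710 to 2138 CPM in endocardial and 509 to 956 CPM in endothelial libraries, with library F lowest. Of the 20, 16 were called higher in endocardial libraries, against 1.42% of all tested genes. The 12 pluripotency genes summed to 322 to 506 CPM and 429.9 to 1312 CPM, with F highest, and the 12 mesenchyme and mural genes to 5754 to 9445 CPM and 4400 to 27723 CPM, with F lowest and B highest. The 11 cardiomyocyte genes summed to 244.5 to 469 and 172 to 376 CPM, and the 10 blood genes to 525 to 1738 and 267 to 2531 CPM, with B highest. The 9 trophoblast genes summed to 273 to 396 and 149 to 380 CPM, with F lowest. In the mesenchyme and mural, cardiomyocyte, blood and trophoblast lists the ranges of the groups overlapped and 0 genes were called. The 11 endoderm and yolk sac genes summed to 110.3 to 119.8 and 49.5 to 78.1 CPM. Of the 6 tested, 2 were called higher in endocardial libraries, against 1.42% of all tested genes. Mymk of the skeletal muscle list and Prl3d1 of the trophoblast list were at 0 in every library.

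The listed imprinted genes with a row made up 0.731% to 1.22% of all counts in a library. Imprinted genes outside this list, Igf2 among them, are not in that share. Those further genes summed to 7205 to 17275 CPM per library, against 6952 to 12325 CPM for the listed genes. Of the further genes, Igf2 alone had 4023 to 12903 CPM per library, and Igf2r had 1214 to 2982 CPM. Levels of different genes are compared here only per length, as mean CPM per kb of merged exons over the 8 libraries. Of the listed genes, Mest, which codes for a protein of the hydrolase fold, stood highest with 385 CPM per kb, rank 96 among the tested genes. Next came the amino acid transporter gene Slc38a4 with 263, Peg10 with 231, Peg3 with 151 and the insulin receptor adaptor gene Grb10 with 121 CPM per kb. Peg10 derives from a retrotransposon and is needed in the placenta, and Peg3 codes for a large zinc finger protein. At the other end were Magel2 with 2.15, Slc22a18, a transporter gene, with 1.92, Mkrn3, which codes for a RING finger protein, with 1.74 and Nap1l5 with 0.856 CPM per kb. Ascl2, a transcription factor gene of the trophoblast, had 1 to 13 counts per library, with the highest in F, and was too low to test.

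**Figure D1:**
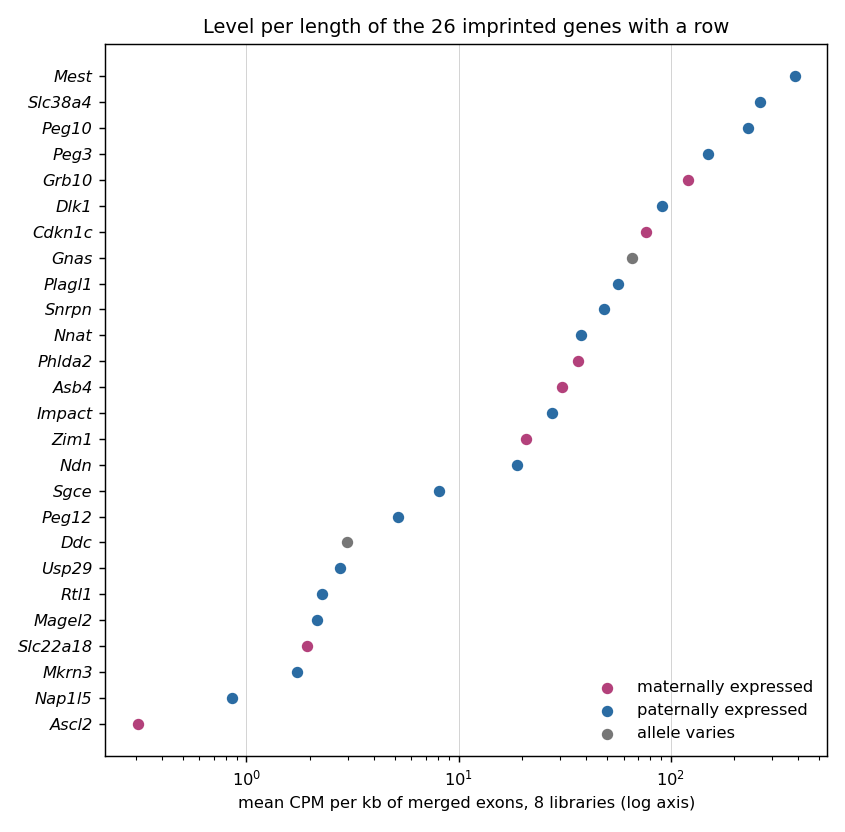
Mean level of each of the 26 imprinted genes in CPM per kb of merged exons over 8 libraries, on a log axis, coloured by parental class. The points run from Ascl2 at 0.309 to Mest at 385 CPM per kb.

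The labelled groups were compared as endocardial minus endothelial, so a negative log2 fold change is a lower endocardial level. By edgeR's quasi-likelihood test, with p-values adjusted over all tested genes, 0 of the 25 genes were higher and 0 were lower in the endocardial libraries at an adjusted p below 0.05. Over all tested genes 2.58% were called, 1.42% higher and 1.16% lower. At an unadjusted p below 0.05, 5 of the 25 (20%) were lower and 0 higher, where 14.6% of all tested genes passed, 8.99% lower and 5.65% higher. The 5 were Magel2, Plagl1, Nnat, Dlk1 and Nap1l5, all paternally expressed. The number of lower members at that p rested on single libraries. It was 1 without B or without C, 2 without E or without G and 3 without H. It was 4 without A or without D, 7 without F and 4 without B and F. Magel2 was among them each time, but the others changed: without F, Usp29, Ddc and Ndn passed and Nnat did not. Higher members at that p were 2 without H, 1 without A, and 1 each by limma and with neighbouring letters as a block. DESeq2 called 1 member lower (Magel2, 4% of members against 3.85% of the genes it tested), and limma with voom weights called 2 (Magel2 and Nap1l5, 8% against 4.09%). With a block for neighbouring letters, edgeR called 3 (Magel2, Plagl1 and Nnat, 12% against 5.06%), but no label pairs these libraries. None of the 3 alternatives called a member higher, where they called 2.4%, 2.97% and 3.65% of all genes higher, in that order.

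**Figure D2:**
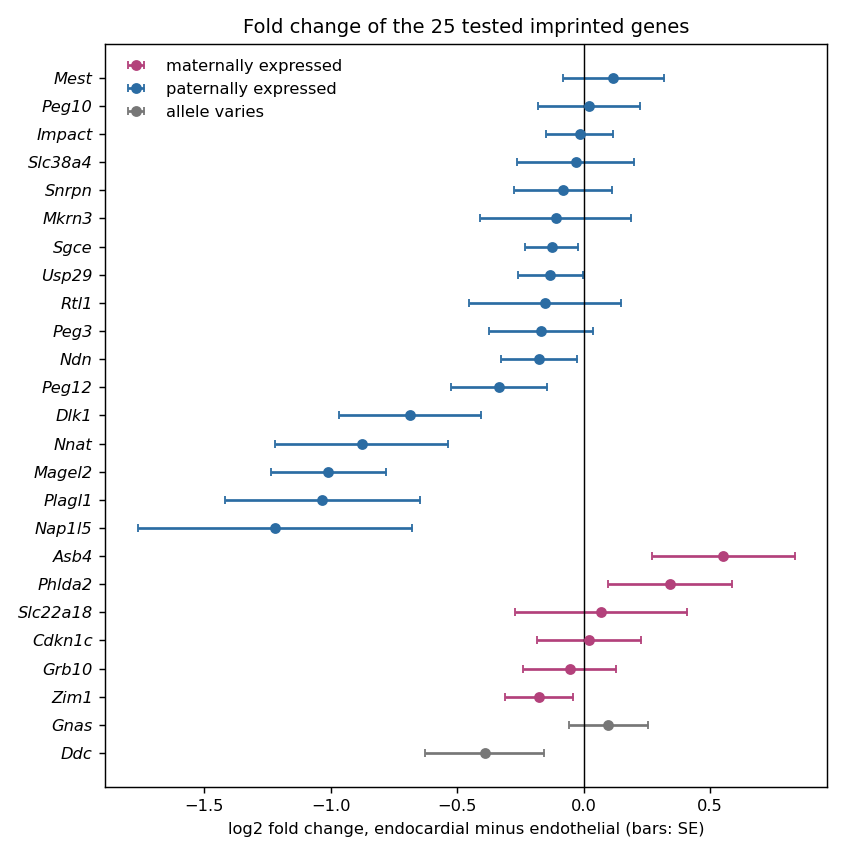
Log2 fold change of the 25 tested imprinted genes, endocardial minus endothelial, with its SE as the bar, by parental class. Nap1l5 at -1.22, Plagl1 at -1.03 and Magel2 at -1.01 stand lowest and Asb4 at 0.55 highest, and 16 of the 25 lie within 0.2 of 0.

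Magel2 codes for a MAGE family protein that works with ubiquitin ligases in endosomal recycling. It is a single-exon gene at GRCm38 chromosome 7, 62377010 to 62381640. It had 8.39 CPM in library A, 5.76 in C, 6.67 in E and 5.61 in G, against 13.9 in B, 13.9 in D, 16.4 in F and 8.97 in H. All endocardial values lay below all endothelial values, although A and H were close. Library F, highest for Magel2, was also highest in the summed neural ectoderm and pluripotency genes. Of these lists, 3 of 10 and 2 of 12 tested genes were called lower in the endocardial group, against 1.16% of all tested genes. The part of such cells in the difference in Magel2 was not tested. Among the 25 genes Magel2 was the only member whose groups did not overlap, as in 9.76% of all tested genes (5.33% with the endocardial values lower). Its log2 fold change was -1.01 (SE 0.23), and edgeR's adjusted p was 0.050002, not below the threshold. The adjusted p was 0.00358 by DESeq2, 0.0071 by limma, 0.0118 with the letter block, and 0.0253 (without H) to 0.156 (without G) when 1 library was left out. With B and F both left out it was 0.306, at a log2 fold change of -0.77.

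Plagl1, a zinc finger transcription factor gene that slows the cell cycle and acts on other imprinted genes (chromosome 10, 13060504 to 13131694), is the gene whose promoter above holds 26 CG pairs. It had 429.7 CPM in A, 261 in C, 272 in E and 199 in G, against 1136 in B, 401 in D, 349 in F and 488 in H. Library B stood far above the rest, and endocardial A lay above endothelial D and F. The log2 fold change was -1.03 (SE 0.39, edgeR adjusted p = 0.241, and 0.0203 under the letter block), and -0.50 without B. Dlk1, a membrane protein with EGF repeats that holds back differentiation of fat cells (chromosome 12, 109452823 to 109463336), had 485 CPM in A, 366 in C, 386 in E and 343 in G, against 1043 in B, 498 in D, 379 in F and 621 in H. Here too B was highest, and F lay inside the endocardial range. The log2 fold change was -0.69 (SE 0.28, edgeR adjusted p = 0.287), and -0.33 without B. In B, the mesenchyme and mural genes summed to 27723 CPM against 11389 CPM or less in every other library. Their part in these differences was not tested. In bulk samples, fewer cells of a type and less RNA per cell cannot be told apart.

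Nnat codes for a small membrane protein of the endoplasmic reticulum known from neurons and lies inside Blcap (chromosome 2, 157560078 to 157562522). It had 64.9 CPM in A, 49.8 in C, 53.3 in E and 26.3 in G, against 128 in B, 79.1 in D, 105.2 in F and 44.0 in H. Library H fell within the endocardial range, and G and H were the lowest of their groups. The log2 fold change was -0.88 (SE 0.34, edgeR adjusted p = 0.263). The adjusted p was 0.00192 under the letter block and 0.854 without B and F, where the log2 fold change was -0.32. The neural ectoderm genes summed to 150 to 227 CPM in endocardial and 197 to 343 CPM in endothelial libraries, with F highest. Their part in this difference was not tested.

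Nap1l5, a gene of the nucleosome assembly protein family, lies inside Herc3 (chromosome 6, 58905233 to 58907076) and had 3 to 29 counts per library. It had 0.387 CPM in A, 0.419 in C, 0.86 in E and 2.12 in G, against 1.87 in B, 2.04 in D, 1.46 in F and 3.47 in H. Library G reached into the endothelial range, and A and C were near the value of 3 counts. The log2 fold change was -1.22 (SE 0.54, edgeR adjusted p = 0.332), -1.93 without G and -1.87 by limma, which called it (adjusted p = 0.0248). The kit marks strand, but whether the counting used it is not given, so some reads of Nap1l5 and Nnat may be uncertain between them and the genes that hold them. Blcap, which holds Nnat, had 39.1 to 46.5 CPM in endocardial and 49.2 to 54.9 CPM in endothelial libraries, a narrower range than Nnat.

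**Figure D3:**
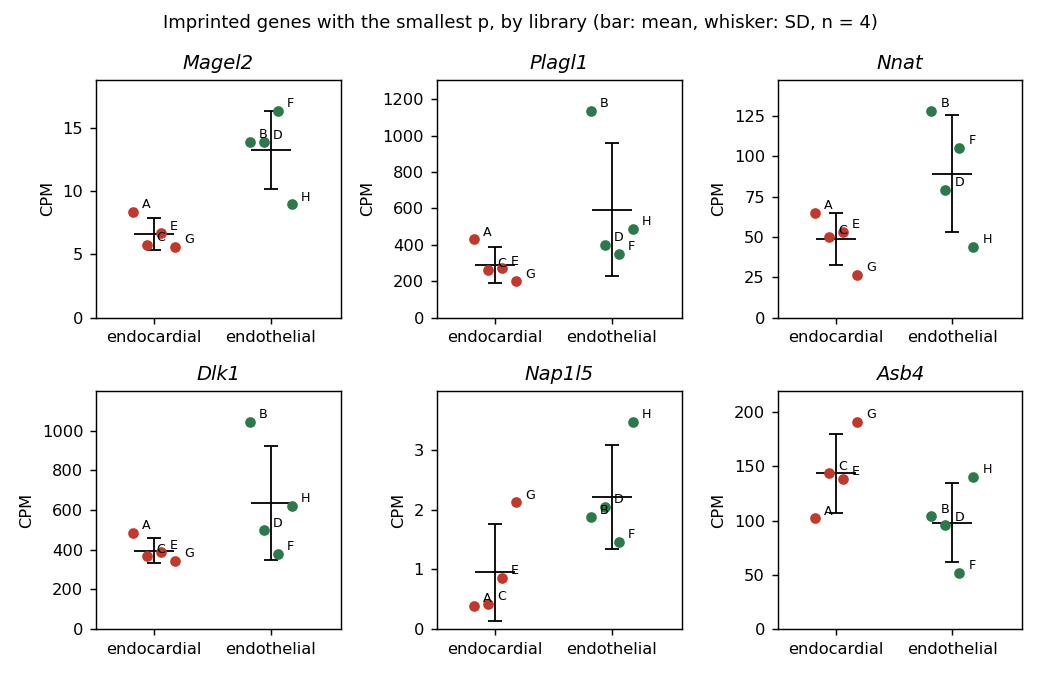
CPM of Magel2, Plagl1, Nnat, Dlk1, Nap1l5 and Asb4 in each library, with the mean as a bar and the SD as a whisker (n = 4 per group) and library letters beside the points. The groups stay apart in Magel2 alone, and library B is highest in Plagl1, Dlk1 and Nnat.

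Magel2 shares its cluster on chromosome 7 with Ndn, Mkrn3, Peg12 and Snrpn, whose log2 fold changes lay between -0.33 and -0.08. Ndn, Magel2, Mkrn3 and Peg12 have a single exon in every annotated transcript, and they make up 15.4% of the 26 genes, where 5.82% of the protein-coding genes in the table have a single exon. Ndn, which codes for a MAGE protein that restrains proliferation, had 67.4 CPM in A, 62.5 in C, 67.4 in E and 65.2 in G, against 95.5 in B, 66.7 in D, 56.7 in F and 77.2 in H. The endocardial values lay within a narrow band (65.6 ± 2.34 CPM, SD, n = 4), with endothelial values on either side. Its log2 fold change was -0.18 (SE 0.15). Peg12, a member of the Frat family of Wnt regulators, had 10.97 CPM in A, 12.8 in C, 14.1 in E and 10.2 in G, against 13.1 in B, 19.7 in D, 15.4 in F and 12.6 in H. The ranges overlapped (log2 fold change -0.33, SE 0.19, edgeR adjusted p = 0.482). Snrpn, a splicing protein gene, had 82.6 CPM in A, 101 in C, 112 in E and 113 in G, against 87.5 in B, 116 in D, 79.8 in F and 149 in H. Its log2 fold change was -0.08 (SE 0.19). Snrpn and Snurf share transcripts and have separate values in the table, and how shared reads were assigned is not known here. Mkrn3 had 3.77 to 5.27 CPM in endocardial and 3.21 to 7.09 CPM in endothelial libraries.

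In the genes of the Peg3 and Peg10 clusters the groups overlapped. Peg3 had 1843 CPM in A, 1951 in C, 1569 in E and 2201 in G, against 2427 in B, 2115 in D, 1436 in F and 2518 in H. The lowest value of each group was in E and F (log2 fold change -0.17, SE 0.20). Usp29, a ubiquitin protease gene that starts beside Peg3 on the opposite strand, had 45.1 CPM in A, 47.1 in C, 53.1 in E and 45.9 in G, against 53.1 in B, 59.4 in D, 41.2 in F and 56.0 in H. It did not follow Peg3 in E, which was the highest endocardial library for Usp29 and the lowest for Peg3. Zim1, the maternally expressed zinc finger gene of the cluster, had 170 CPM in A, 164 in C, 155 in E and 146 in G, against 227 in B, 164 in D, 152 in F and 174 in H. Apart from B, the groups lay close together (log2 fold change -0.17, SE 0.13).

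Peg10 had 1806 CPM in A, 1571 in C, 1329 in E and 1491 in G, against 1725 in B, 1641 in D, 1004 in F and 1734 in H. Library F was apart from the other endothelial libraries and below every endocardial one (log2 fold change 0.02, SE 0.20). Sgce, which codes for a sarcoglycan of the cell membrane and starts beside Peg10 on the opposite strand, had 77.2 CPM in A, 84.8 in C, 76.8 in E and 90.2 in G, against 85.1 in B, 85.6 in D, 86.3 in F and 102 in H. It varied least of the 25 genes over the 8 libraries (SD of log2 CPM 0.13, at percentile 9.65 of the tested genes) and was not low in F. Rtl1, another retrotransposon-derived gene, needed for placental capillaries, had 9.81 to 19.7 CPM in endocardial and 8.87 to 22.5 CPM in endothelial libraries, and it lies antisense to noncoding transcripts whose reads may be among its counts.

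Among genes that restrain growth or act in signalling, the ranges of the groups overlapped in every gene. Grb10 had 972 CPM in A, 1137 in C, 1065 in E and 1157 in G, against 1108 in B, 1218 in D, 778 in F and 1397 in H. The endothelial values reached past the endocardial range on each side (log2 fold change -0.06, SE 0.18). Cdkn1c, an inhibitor of cyclin-dependent kinases, had 137 CPM in A, 159 in C, 165 in E and 168 in G, against 178 in B, 154 in D, 91.2 in F and 197 in H. As in Grb10, F was lowest and H highest, and the log2 fold change of Cdkn1c was 0.02 (SE 0.21). Phlda2, which limits growth of the placenta, had 39.2 to 51.2 CPM against 19.4 to 50.2 CPM (log2 fold change 0.34, SE 0.25), again with F lowest. Ddc, the enzyme that makes dopamine, had 12.3 CPM in A, 11.41 in C, 12.2 in E and 10.2 in G, against 21.7 in B, 11.7 in D, 10.2 in F and 16.6 in H. Only B and H exceeded the endocardial values (log2 fold change -0.39, SE 0.23).

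Asb4, maternally expressed and a substrate adaptor of a ubiquitin ligase known from embryonic vessels, had the largest positive log2 fold change of the 25 genes, 0.55 (SE 0.28, edgeR adjusted p = 0.427). It had 102 CPM in A, 144 in C, 138 in E and 191 in G, against 104.1 in B, 95.9 in D, 52.0 in F and 140 in H. Endocardial A lay below endothelial B and H, so the ranges overlapped, and the log2 fold change was 0.32 without F. Pan-endothelial genes were also lowest in F and highest in G, and their part was not tested. Slc22a18 had 2.04 to 4.62 CPM and 1.88 to 4.07 CPM, with 18 to 37 counts per library.

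Mest had 1578 CPM in A, 1659 in C, 1424 in E and 1656 in G, against 1609 in B, 1581 in D, 926 in F and 1704 in H. Outside F all libraries were within a narrow range (log2 fold change 0.12, SE 0.20, and -0.06 without F). Slc38a4 had 1185 CPM in A, 1172 in C, 849 in E and 1229 in G, against 1272 in B, 1129 in D, 682 in F and 1450.2 in H. Both E and F were low (log2 fold change -0.03, SE 0.23). Gnas, which codes for the stimulatory G protein alpha subunit and for other transcripts that a gene-level count adds together, had 657 CPM in A, 738 in C, 817 in E and 814 in G, against 764 in B, 709 in D, 538 in F and 816 in H. Impact, which codes for an inhibitor of the Gcn2 kinase pathway, had 147 CPM in A, 144 in C, 128 in E and 143 in G, against 177 in B, 137 in D, 114 in F and 139.7 in H. For Gnas and Impact the groups overlapped, and the log2 fold changes were 0.10 (SE 0.16) and -0.02 (SE 0.13).

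Single libraries stood out in the values of the imprinted genes. Library F had the lowest value in 16 of the 25 genes (64%), where it was lowest in 21.5% of all tested genes. Among the 17 members with a mean of at least 50 CPM, F was lowest in 12, against 34.2% of all tested genes at that level. Library H was highest in 9 members (36% against 8.85% of tested genes) and B in 7 (28% against 10.9%). Of the further imprinted genes, Igf2, the growth factor gene beside H19, was also lowest in F, at 4023 CPM against 8364 to 12903 CPM in the other libraries. Others of these genes were highest in F, among them Sfmbt2 (74.7 CPM against 7.85 to 19.4) and Jade1 (92.7 CPM against 37.5 to 55.1). How many of the further genes went each way was not counted. Pou5f1, a pluripotency factor gene, was at 95.5 CPM in F and at 1.47 to 27.4 CPM elsewhere. The part of pluripotent or other cells in the low values of F was not tested.

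**Figure D4:**
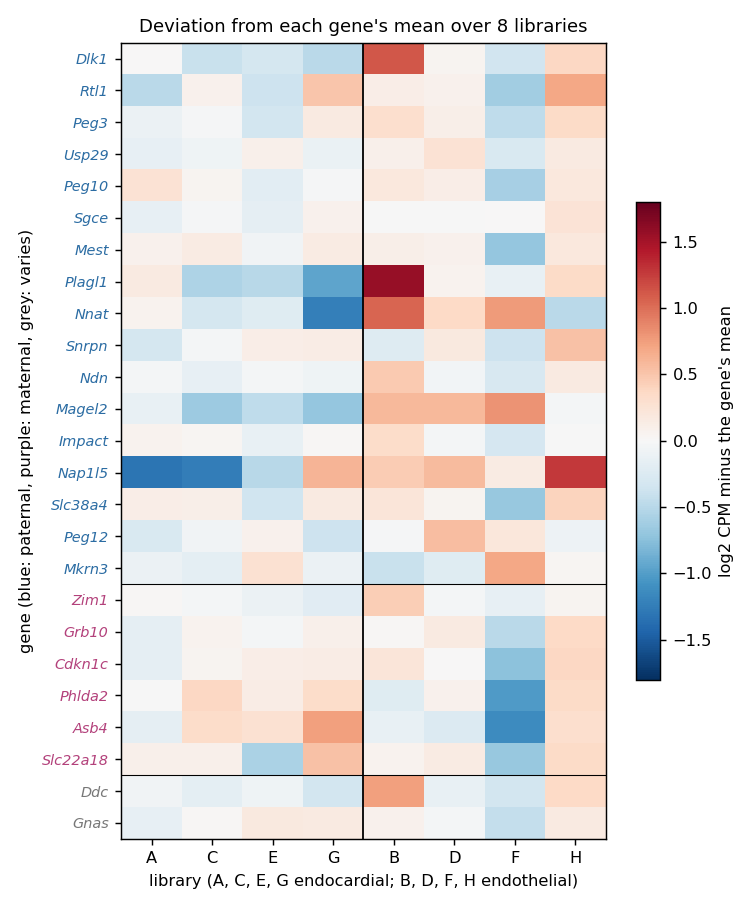
Log2 CPM of each of the 25 tested imprinted genes minus its mean over 8 libraries, as colour, with libraries grouped by label and genes by parental class. Column F is blue in most rows, and column B is red in Plagl1, Dlk1 and Nnat.

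The spread was wider in the endothelial group. The median SD of log2 CPM of the 25 genes was 0.41 over the endothelial and 0.20 over the endocardial libraries, where all tested genes had medians of 0.25 and 0.23. Without F, the endothelial median was 0.25 for the imprinted genes and 0.20 for all tested genes. Over all 8 libraries, Nap1l5, Plagl1, Nnat, Magel2, Asb4 and Dlk1 varied most, with SDs from 0.93 to 0.53, and their highest value was 8.95, 5.70, 4.87, 2.92, 3.67 and 3.04 times the lowest. A share of the sum of squares lay between the means of the pairs of neighbouring letters (A with B, C with D, E with F and G with H). Its median was 55.6% in the imprinted genes and 53.8% over all tested genes. The median share between the labelled groups was 12.3% and 12.9%, in that order. By both shares the imprinted genes were near the rest of the table. The pairs outnumber the groups, so the pair share and the group share are not on the same scale. Slc22a18 (98.1%), Slc38a4 (90.1%) and Rtl1 (84.6%) had the largest shares between letter pairs, and in all of them F was lowest. Magel2 had the largest share between the groups, 75.8%.

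**Figure D5:**
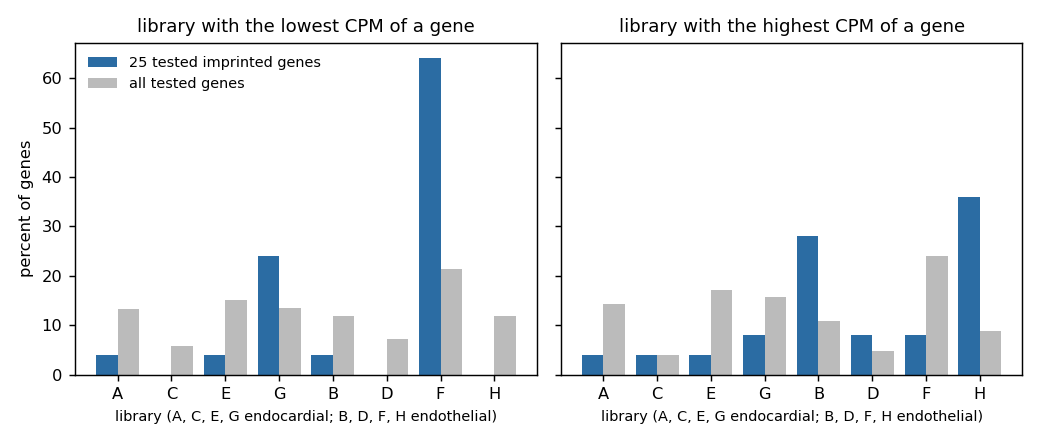
Percent of genes whose lowest (left) or highest (right) CPM falls in each library, for the 25 tested imprinted genes (blue) and all tested genes (grey). F holds the lowest value of 64% of the imprinted genes and H the highest of 36%.

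By parental class, the log2 fold change was negative in 15 of 17 paternally expressed genes (median -0.15) and in 2 of 6 maternally expressed genes (median 0.04). Over all tested genes 47.5% were negative and the median was 0.01. The classes were chosen with results of these data known, so no test was made of their difference. The median of the maternally expressed genes changed sign without F (-0.16), without G (-0.038), without B and F (-0.11) and by limma (-0.02), and that of the paternally expressed genes became -0.30 without F. Summed over members, the paternally expressed genes had 6357 to 7843 CPM in endocardial and 5307 to 9885 CPM in endothelial libraries, and the maternally expressed genes 1424 to 1717 and 1096 to 1964 CPM. Both sums were lowest in F, and the ranges of the groups overlapped.

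Of 41 further imprinted genes, 30 were tested and 0 were called by edgeR over all genes, with a list median log2 fold change of 0.10. At an unadjusted p below 0.05 there were 8 (26.7%, against 14.6% of all tested genes), 5 lower and 3 higher. DESeq2 called 3 lower and 1 higher (13.3% in all), where it called 3.85% of its genes lower and 2.4% higher. Limma called 0 lower and 1 higher (3.33%), against 4.09% and 2.97% of all tested genes. With the letter block, edgeR called 3 lower and 3 higher (20% in all), against 5.06% and 3.65%. Atp10a, which codes for a lipid flippase, had the smallest p, with 9.39 ± 2.03 endocardial and 18.9 ± 5.33 endothelial CPM (SD, n = 4, log2 fold change -1.01, edgeR adjusted p = 0.0596). DESeq2 (adjusted p = 0.00578) and the letter block (adjusted p = 0.0091) called it. Pon3, a lactonase gene, had 8.88 ± 2.09 and 3.996 ± 1.24 CPM (SD, n = 4, log2 fold change 1.14, edgeR adjusted p = 0.0704), and DESeq2, limma and the letter block called it (adjusted p = 0.00683, 0.0302 and 0.00636). Dio3, which inactivates thyroid hormone and shares a cluster with Dlk1, had a log2 fold change of -1.27 (edgeR adjusted p = 0.0944, DESeq2 0.0447, letter block 0.0324), and Trappc9, a trafficking gene, had 0.43 (edgeR adjusted p = 0.121, letter block 0.0317).

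Of 20 genes that set or keep imprints, 0 were called by edgeR, with a list median log2 fold change of -0.026. At an unadjusted p below 0.05 there were 3 (15%, against 14.6% of all tested genes), all lower: Tet1, Dppa3 and Dnmt3l. DESeq2 called 1 (5%, against 3.85% of its genes called lower), limma 3 (15% against 4.09%) and edgeR with the letter block 2 (10% against 5.06%). All were lower and from these 3. The levels of Zfp57 were 129 ± 18.6 and 131 ± 24.4 CPM (SD, n = 4), those of the maintenance methyltransferase gene Dnmt1 329 ± 31.4 and 324 ± 26.5 CPM, and those of Trim28, the corepressor that Zfp57 recruits, 558 ± 43.0 and 615 ± 46.3 CPM. Tet1, which oxidises methylated cytosine, had 54.9 ± 4.19 and 92.2 ± 29.4 CPM (log2 fold change -0.75, edgeR adjusted p = 0.0791, DESeq2 0.0102, limma 0.0129). Dppa3 and Dnmt3l, genes of germ cells and pluripotent cells, were at 17.3 and 35.5 CPM in F and at 2.92 and 13.3 CPM or less elsewhere. Their log2 fold changes were -3.90 and -2.87 (edgeR adjusted p = 0.192 and 0.294). Limma (adjusted p = 0.00823 and 0.032) and the letter block (adjusted p = 0.00368 and 0.00344) called both. Eed, of the Polycomb complex that methylates histone H3, had -0.12. Zfp57, Dnmt1 and Trim28 were named for their roles, after their values had been seen.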

How the data were processed

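RNA from 8 sorted samples, 4 labelled endocardial and 4 endothelial, was sequenced after a stranded mRNA kit, per the labels' protocols. The authors deposited estimated counts per gene symbol; Salmon, DESeq2 and build mm10 are named per the submitters' processing notes, and the sources used here give no version, transcript set or filter. The estimated counts were whole numbers as deposited, so rounding changed nothing. Symbols were matched to GENCODE M21 (GRCm38), 32697 of 34536 in all.

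In edgeR 4.0.16 (R 4.3.3), filterByExpr kept genes by a count of at least 10 and a total of at least 15, TMM set the scaling, and the robust quasi-likelihood F-test compared the groups, with Benjamini-Hochberg adjustment. SE is the absolute log2 fold change over the square root of F. Log2 CPM used a prior count of 2. Libraries of a group differed beyond sampling noise (chi-square per degree of freedom at least 9.56). The test was tested on simulated data.

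Alternatives were DESeq2 1.42.0, limma 3.58.1 voom, other scalings, filters and thresholds, neighbouring letters as a block, and leaving out libraries. Library values were given for the 8 members with the smallest p, those with a mean of at least 50 CPM and the 6 with the largest SD, and of the other imprinted and imprint maintenance genes the 4 with the smallest p were named. Where 1 library is left out, the fit pools the spread over both groups. Members, lists and parental classes were chosen with earlier results of these data known.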

Additional observations from a re-analysis of the deposited data

Results flagged for a closer look

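In 5 of 52 groups of 4 library values, the highest or lowest library lay apart from the other 3 by Dixon's criterion (its gap to the nearest over the group's range was 0.843 to 0.930), and chance alone marks about 1 in 20 groups. Peg10 was at 1004 CPM in endothelial library F, where the other endothelial libraries had 1641 to 1734 CPM. Mest was at 926 CPM in the same library against 1581 to 1704 CPM. Sgce was at 102 CPM in endothelial library H against 85.1 to 86.3 CPM. Slc38a4 was at 849 CPM in endocardial library E against 1172 to 1229 CPM. Mkrn3 was at 5.27 CPM in endocardial library E against 3.77 to 4.002 CPM.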

How the results depend on the processing

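edgeR called 356 genes in all, against 860 by DESeq2, 975 by limma, 104 at a threshold of 0.01, 1204 with neighbouring letters as a block, 234 without B and F (added after the data were seen), and 135 (without E) to 457 (without B) when 1 library was left out. Lower members were 0 by edgeR, 1 by DESeq2, 2 by limma, 3 with the block and 0 to 1 with 1 library left out (1 without H). The median of paternally expressed members was -0.28 without B and F, and -0.30 (without F) to -0.10 (without H) with 1 left out. No label pairs the libraries, and the block of neighbouring letters rests on their order alone. Of all calls, 55.1% were higher in the endocardial group by edgeR, 38.4% by DESeq2, 42.1% by limma and 41.9% with the block. Small log2 fold changes that passed no threshold changed sign, and the cause was not tested: by limma Peg10 (-0.045), Cdkn1c (-0.0034), Impact (0.021), Mkrn3 (0.016) and Slc22a18 (-0.037), with upper-quartile scaling Peg10 (-0.016) and Cdkn1c (-0.017), with the block Impact (0.00049) and Slc38a4 (0.0071), and without B and F Peg10 (-0.11), Mest (-0.041), Cdkn1c (-0.14), Impact (0.037), Mkrn3 (0.092) and Slc22a18 (-0.17). With 1 library left out, the ranges that cross 0 were -0.15 to 0.10 for Peg10, -0.12 to 0.12 for Impact, -0.23 to 0.11 for Slc38a4, -0.18 to 0.15 for Cdkn1c, -0.064 to 0.20 for Mest, -0.031 to 0.17 for Gnas, -0.25 to 0.16 for Mkrn3, -0.14 to 0.23 for Slc22a18, -0.36 to 0.088 for Rtl1, -0.21 to 0.062 for Grb10 and -0.22 to 0.11 for Snrpn. Depth limits Nap1l5 and Ascl2 most, at 1 to 29 counts per library.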
